A study of Mus musculus with 8 samples.

Results

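DNA replication and mitosis genes were described in the RNA of CD11b+ cells of mouse bone marrow (BM). The set holds 49 genes, chosen by name as genes of S phase (23 genes: helicase subunits, licensing factors, nucleotide synthesis, E2F factors and cyclin E-CDK2) and of G2/M (26 genes: cyclins, kinases, kinesins and spindle checkpoint genes). All 49 were found among the 41018 genes of the expression table. The study asked whether extracellular vesicles (EVs) of pancreatic cancer (PC) cells alter gene expression in CD11b+ BM cells. It sequenced 4 samples from PC-EV-educated mice and 4 samples from PBS mice. Both groups were C57BL/6 females of 5 to 8 weeks, unmodified genetically as far as the labels state, and were injected retro-orbitally every other day for 3 weeks. PC-EV-educated mice received 5 µg of EVs from PAN02, a mouse pancreatic adenocarcinoma cell line, and PBS mice received the vehicle, although the treatment label of their samples reads untreated. Cells were taken from femur and tibia marrow after red cell lysis, using magnetic beads against CD11b, an integrin chain of neutrophils, monocytes and macrophages. The number of mice behind each sequenced sample is not stated, whereas pooled animals are stated for the quantitative PCR of such cells.

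The value analysed for each gene is the authors' mean of the group in which that gene was higher, the larger of the PC-EV and PBS group means. It carries no SD and no n. No values of individual samples enter the analysis, and the authors' own fold changes and p-values were not used, so no direction between PC-EV-educated and PBS mice is given for any gene and no test between the groups was made. The results below describe levels within CD11b+ BM cells. When the levels of 2 genes are set side by side, they can come from different groups. Levels are in RPKM (reads scaled to each gene's exon length and to the sequencing depth), a unit recovered from the values as described under processing. Since the cells were measured in bulk, the share of cycling cells and the RNA per cycling cell cannot be told apart in a level.

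A dividing cell copies its genome in S phase and separates the copies in mitosis. In late G1, cyclin-dependent kinases, cyclin E-CDK2 among them, release E2F factors from the retinoblastoma family of repressors. E2F factors then switch on the genes for origin licensing, the MCM helicase and deoxynucleotide supply. The G2/M genes are held down by the DREAM repressor complex earlier in the cycle and are driven later by B-MYB and FOXM1, through promoter elements that include the cell cycle genes homology region (CHR) and CCAAT boxes, which bind NF-Y. In BM, granulocyte precursors and other progenitors divide, whereas mature neutrophils have left the cell cycle.

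The library sizes were about 42200000 to 53500000 counted reads or read pairs, as read from the smallest steps of the levels. Which library belonged to which group was not determined. Neutrophil genes were the most abundant marker list, with a median of 2844 RPKM over 12 genes and S100a9 at 42151 RPKM, S100a8 at 19134 RPKM and Ngp at 15868 RPKM. Genes listed for granulocyte precursors, which include primary granule proteins, had a median of 61.2 RPKM over 9 genes. The highest were Fcnb (243 RPKM), Elane (226 RPKM) and Cebpe (150 RPKM). Monocyte and macrophage lists had medians of 24.6 RPKM (7 genes, with Ly6c2 at 189 RPKM) and 19.3 RPKM (8 genes, with C1qa at 34.7 RPKM). Of the myeloid genes listed as a check of the bead selection, Itgb2, the integrin partner chain of CD11b, reached 439 RPKM, and the level of the CD11b gene itself was not analysed here. The eosinophil, basophil and mast cell list had a median of 4.97 RPKM (6 genes), with Prg2 at 285 RPKM. Medians were 0.773 RPKM for erythroid genes (10 genes, with Hbb-bs at 57.6 RPKM), 0.258 RPKM for B lineage genes (11 genes), 0.795 RPKM for plasma cell genes (6 genes), 0.255 RPKM for T and NK cell genes (7 genes), 0.485 RPKM for stem and progenitor genes (6 genes) and 0.815 RPKM for megakaryocyte genes (5 genes). Single genes of these lists stood well above the medians. The highest were Xbp1 at 28.0 RPKM (plasma cell), Nkg7 at 17.1 RPKM (T and NK cell) and Kit at 5.28 RPKM (stem and progenitor). In the B lineage and megakaryocyte lists they were Cd79b at 3.54 RPKM and Gp1bb at 1.89 RPKM. No marker of any list was at 0. Granulocyte precursor, progenitor, erythroid and B lineage cells can all divide in marrow, and the part of each in the levels below was not tested.

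The replication and mitosis genes stood high among all genes of CD11b+ BM cells, though below most of the ubiquitous genes listed. Of the 49 genes, 48 reached at least 1 RPKM, the exception being Gins2 at 0.950 RPKM, whereas 32.7% of the 28225 genes with a level above 0 and 45.5% of the 18992 such protein-coding genes did so. The median member stood at 12.5 RPKM, at percentile 91.3 of all genes with a level above 0. The median protein-coding gene stood at 0.568 RPKM, and all 49 members lay above it. A list of 11 ubiquitous genes had a higher median than the members, 133 RPKM, with Actb at 4444.5 RPKM. Among protein-coding genes, 41 members lay in the top 25% and 15 in the top 10%. Levels spanned 100-fold, with Mki67 at 95.1 RPKM as the highest and Gins2 as the lowest. From the depth of the libraries, the group mean rests on about 494 to 625 reads for Gins1, the fewest of any member. For Mki67, with the most, it rests on about 161611 to 204781 reads. Within a gene, the number depends on which libraries made up the group. Counting error alone was at most 4.50% of a level. This error covers counting only, since the spread between mice could not be had from group means.

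**Figure D1:**
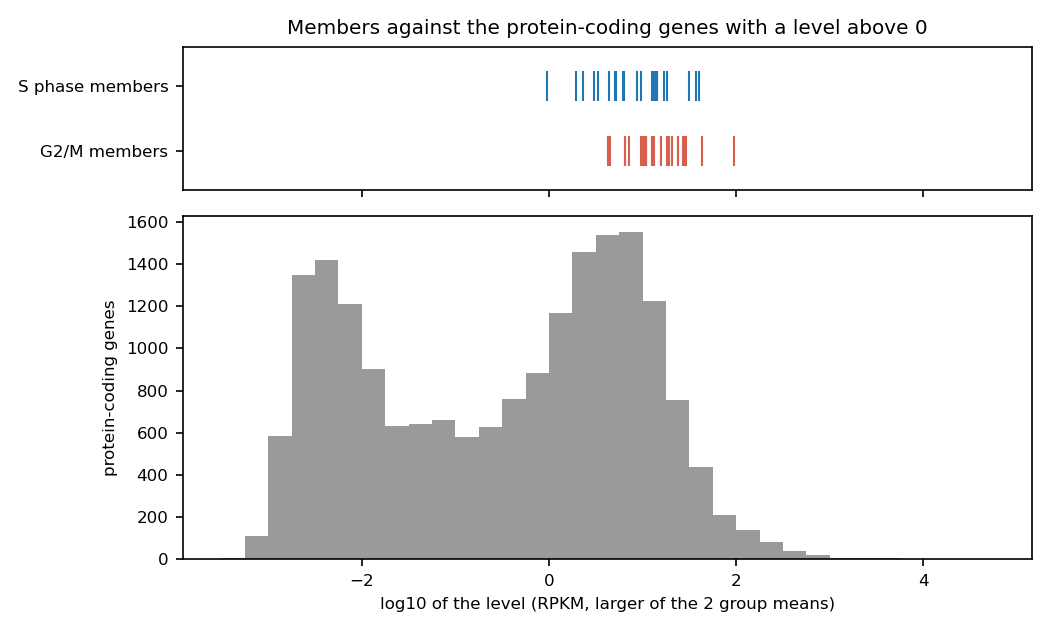
Levels of the 23 S phase members (upper row of ticks) and the 26 G2/M members (lower row) above a histogram of the 18992 protein-coding genes with a level above 0; the x axis is log10 of RPKM in the group with the higher mean. All 49 ticks lie to the right of the protein-coding median of 0.568 RPKM, within the right-hand mode of the histogram.

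S phase genes had a median of 9.68 RPKM and G2/M genes a median of 12.6 RPKM, a ratio of 0.769. At least 10 RPKM was reached by 11 of 23 S phase genes and by 20 of 26 G2/M genes. The lowest of these was Kif23 at 10.2 RPKM. Among genes with a level above 0, it stood at percentile 89.5 of all genes and 84.9 of protein-coding genes. No test was made of this difference, because the members were picked by name and are not replicates. The ranges overlapped, at 0.950 to 40.3 RPKM in S phase genes and 4.31 to 95.1 RPKM in G2/M genes.

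RPKM divides by the merged length of all annotated exons of a gene, which for some members is much longer than the main transcript. The median ratio of the merged length to that of the longest principal transcript was 1.37, and it was over 2 for 10 members. Levels were therefore also expressed per principal transcript length. On that scale the medians were 15.7 RPKM for S phase genes and 19.7 RPKM for G2/M genes, and the range was 95.3-fold. At least 10 RPKM was reached by 15 S phase and 22 G2/M genes, and the share over all genes was not computed on that scale. The order of the members on the 2 scales had a Spearman rho of 0.87 over 49 genes that share the same libraries, given as a description. For some members the longest principal transcript is nearly as long as the merged exons. It has 7557 of 8390 bases in Mad2l1, 3900 of 4097 in Gins2 and 4375 of 4934 in Cdk1. For such genes, like values on the 2 scales are no check on the length used.

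**Figure D2:**
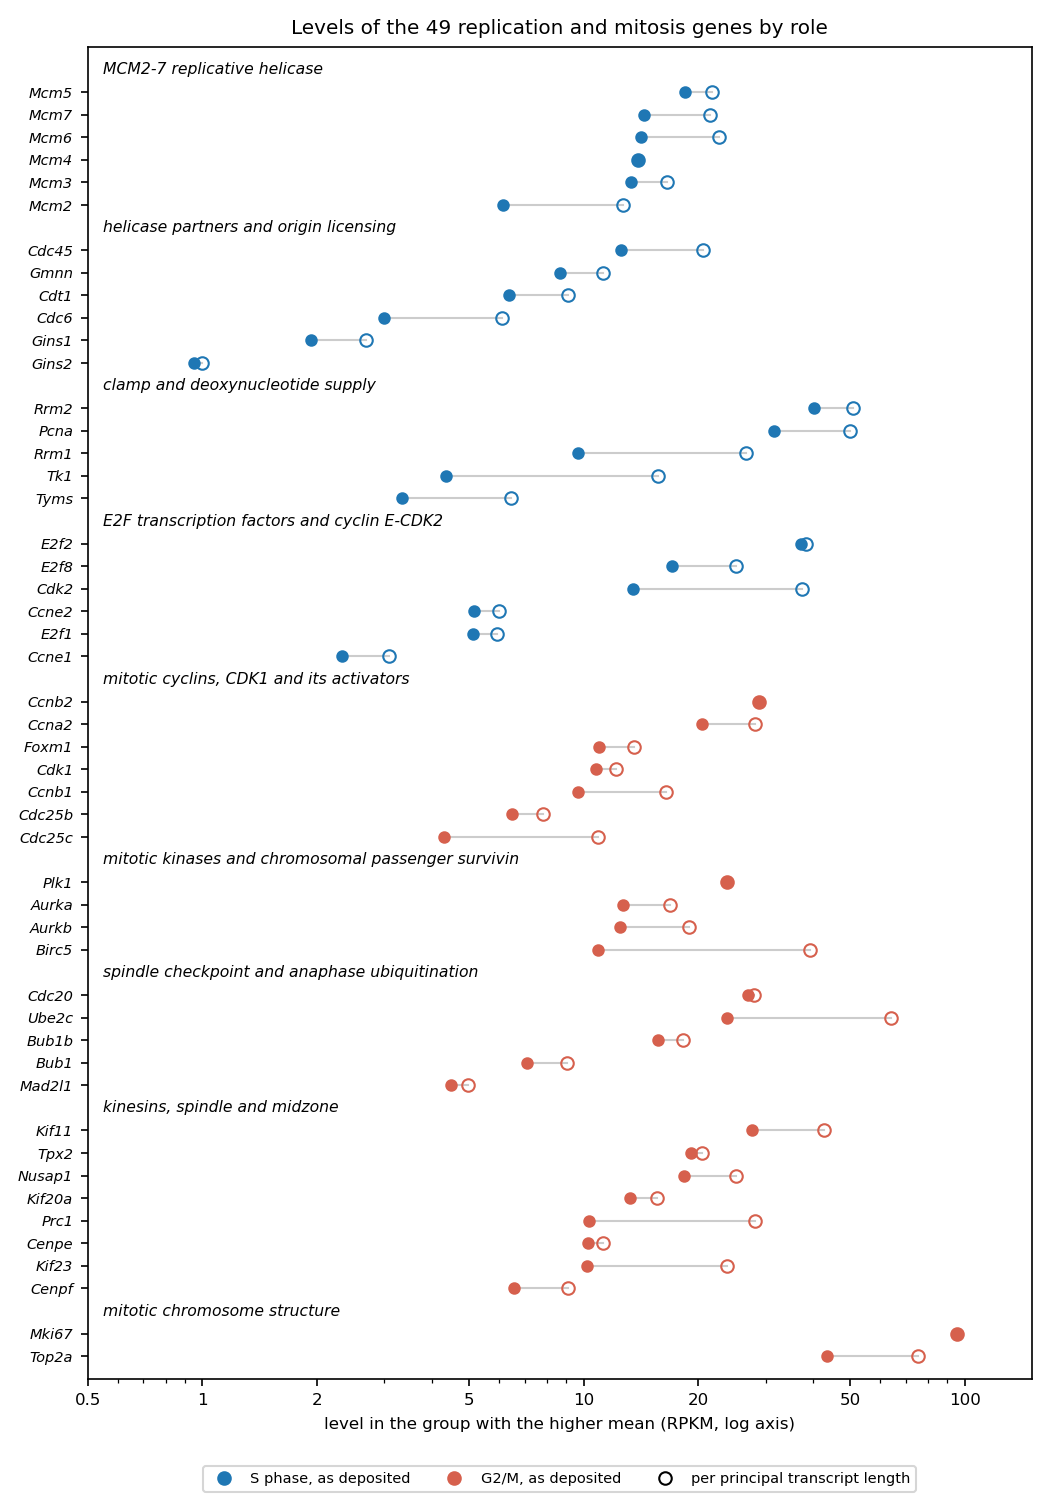
Levels of the 49 members grouped by role, on a log axis in RPKM; filled points are the deposited levels, open points the same levels per principal transcript length, S phase genes in blue and G2/M genes in red. Mki67 (95.1 RPKM) and Top2a (43.5 RPKM) lead on the deposited scale, Gins2 (0.950 RPKM) is lowest on both scales, and Tk1 and Birc5 have the longest lines between the scales.

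The MCM2-7 complex, the ring that unwinds DNA at the replication fork, is built from 1 copy of each of 6 subunits. On the deposited scale, 4 subunits lay close together, at 13.3 RPKM for Mcm3, 13.9 RPKM for Mcm4, 14.1 RPKM for Mcm6 and 14.4 RPKM for Mcm7. Mcm5 (chr8:75109569-75128439, GRCm38) was higher at 18.4 RPKM and Mcm2 (chr6:88883474-88898780) lower at 6.13 RPKM. The Mcm5 level was 3.01 times that of Mcm2, and 1.72 times per transcript length, since the merged exons of Mcm2 are 2.06 times as long as its transcript. Per transcript length the 4 subunits were further apart, at 16.5 RPKM for Mcm3, 13.9 RPKM for Mcm4, 22.7 RPKM for Mcm6 and 21.5 RPKM for Mcm7, and Mcm6 stood above Mcm5 (21.8 RPKM), while Mcm2 was lowest on both scales (12.6 RPKM). Counting error was near 1% for each subunit, at 0.90% for Mcm5 and 1.18% for Mcm2. Part of Mcm7, 7.25% of its exon length, lies under exons of Ap4m1 on the opposite strand.

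The partners and loaders of the helicase were at lower levels, with a median of 4.68 RPKM over 6 genes. Cdc45, which joins MCM2-7 and GINS in the active helicase, was the highest at 12.6 RPKM. Gmnn, the inhibitor of Cdt1 that prevents a second round of licensing, stood at 8.66 RPKM and Cdt1, the licensing factor itself, at 6.36 RPKM, so that Cdt1 had 0.735 times the level of Gmnn (0.811 times per transcript length). Cdc6, which loads MCM2-7 together with Cdt1, had 2.99 RPKM. The GINS subunits Gins1 and Gins2 were the lowest members of the whole set, with 1.93 RPKM and 0.950 RPKM, although their partner Cdc45 was above the member median. The level of Gins2 (chr8:120578633-120589304) is uncertain, because 67.3% of its exon length lies under exons of Gse1 on the opposite strand (7.44 RPKM) and the sources used here do not state whether reads were counted by strand.

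Deoxynucleotide supply and the sliding clamp split into high and low genes. Rrm2, the small and cell cycle-regulated subunit of ribonucleotide reductase, had 40.3 RPKM, the highest S phase level. Rrm1, the large subunit, had 9.68 RPKM. The ratio of Rrm2 to Rrm1 was 4.16 on the deposited scale and 1.91 per transcript length. Pcna, the clamp that holds DNA polymerases on their template, followed Rrm2 with 31.7 RPKM, and the annotated mouse pseudogenes of Pcna could share reads with it. Tyms, which makes thymidylate, and Tk1, which salvages thymidine, were among the 7 lowest members, with 3.34 RPKM and 4.35 RPKM. Tk1 differed most between the scales, with 15.7 RPKM per transcript length, since its merged exons are 3.61 times as long as its transcript. Tyms had 6.44 RPKM on that scale.

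Among the E2F factors, E2f2, an activator, was far above the others with 37.1 RPKM, the fourth highest of all members. E2f8, a repressor of E2F target genes, had 17.0 RPKM, and E2f1, also an activator, had 5.12 RPKM. E2f2 was thus at 7.25 times the level of E2f1, and at 6.47 times per transcript length. For E2f8 the ratio to E2f1 was 3.32, and 4.24 per transcript length, so that the order of the 3 factors was the same on both scales. The kinase Cdk2 had 13.5 RPKM and its E cyclins were much lower, at 5.15 RPKM for Ccne2 and 2.32 RPKM for Ccne1. Ccne2 shares 17.4% of its exon length with Ints8 on the opposite strand.

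Of the mitotic cyclins, Ccnb2 had the highest level, 28.8 RPKM, followed by Ccna2 with 20.4 RPKM and Ccnb1 with 9.68 RPKM. Ccnb2 stood at 2.98 times Ccnb1 on the deposited scale and at 1.76 times per transcript length. Their kinase Cdk1 had 10.8 RPKM, or 0.798 times the level of Cdk2. Per transcript length the ratio was 0.324, and Cdk2 held rank 9 of 49. The second ratio depends on the lengths used, since the principal transcript has 4375 of 4934 bases in Cdk1 and 2240 of 6219 in Cdk2. Of the phosphatases that activate Cdk1, the members Cdc25b and Cdc25c had 6.48 RPKM and 4.31 RPKM. Cdc25a, listed here among the other G2/M regulators, was higher at 10.8 RPKM (23.8 RPKM per transcript length). The order of the 2 members depended on the length used. The ratio of Cdc25b to Cdc25c was 1.5 on the deposited scale and 0.717 per transcript length. Foxm1, the transcription factor that drives G2/M genes, had 11.0 RPKM. Exons of other genes on the opposite strand cover 12.5% of Ccna2 (Exosc9) and 12.7% of Cdc25c.

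Among the mitotic kinases, Plk1, which acts in mitotic entry and at centrosomes and kinetochores, had 23.8 RPKM. Aurka, the kinase of spindle poles, and Aurkb, the kinase of the chromosomal passenger complex, were at nearly the same level with 12.7 RPKM and 12.5 RPKM. The ratio of Aurka to Aurkb was 1.02 and changed side to 0.894 per transcript length. Birc5, which encodes survivin, the partner of Aurkb in that complex, had 10.9 RPKM on the deposited scale and 39.2 RPKM per transcript length.

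The spindle checkpoint holds cells in metaphase by blocking Cdc20, the activator of the anaphase-promoting complex, and its genes were spread widely. Cdc20 had 26.9 RPKM and Ube2c, the ubiquitin-conjugating enzyme of the same complex, 23.7 RPKM. Of the checkpoint proteins that act on Cdc20, Bub1b had 15.6 RPKM and Mad2l1 4.48 RPKM. The checkpoint kinase Bub1 stood at 7.09 RPKM. The Cdc20 level was 6.01 times that of its inhibitor Mad2l1, and 5.64 times per transcript length. Both lengths used for Mad2l1 are long, at 8390 and 7557 bases against 1868 and 1793 in Cdc20. Like ratios on the 2 scales are therefore no check on this gap. The reads behind the means lay closer, at about 6348 to 8044 for Mad2l1 and 8495 to 10764 for Cdc20. Per transcript length, Ube2c stood at 63.8 RPKM, behind only Mki67 and Top2a. It has 22.8% of its exon length under Tnnc2 on the opposite strand, a gene at 0.104 RPKM.

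Genes of spindle motors and the spindle midzone covered a narrower range. Kif11, the motor that pushes spindle poles apart, led with 27.7 RPKM. Tpx2, the activator of Aurka on spindle microtubules, had 19.1 RPKM and Nusap1, a microtubule-bundling protein, 18.3 RPKM. The midzone genes of cytokinesis, Kif20a, Prc1 and Kif23, had 13.2 RPKM, 10.3 RPKM and 10.2 RPKM. Prc1 and Kif23 had 28.1 RPKM and 23.7 RPKM per transcript length, where Kif20a had 15.6 RPKM. The kinetochore motor Cenpe had 10.3 RPKM and the large kinetochore protein Cenpf 6.55 RPKM. Kif20a shares 29.3% of its exon length with Cdc23 on the opposite strand.

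The genes of mitotic chromosome structure were the highest of all members. Mki67 (chr7:135689784-135716361), whose product Ki-67 coats mitotic chromosomes and is used to stain cycling cells, had 95.1 RPKM. Top2a (chr11:98992943-99024189), the topoisomerase that untangles sister DNA, had 43.5 RPKM. Mki67 was at 2.18 times Top2a on the deposited scale and at 1.27 times per transcript length, and the pair held ranks 1 and 2 on both.

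Exons of other genes overlapped 18 of the 49 members, and for 11 of them the overlap with a single other gene was over 5% of the exon length. Apart from those named above, these were E2f8 (11.2%), Prc1 (11.1%), Plk1 (7.09%) and Cdc45 (5.96%). Without the 11 genes, the ratio of the S phase to the G2/M median was 0.782.

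The 49 members had a higher median level than the rest of the pathway. Of 147 other replication and mitosis genes, sorted into 10 lists, all were in the table and 136 reached 1 RPKM. The median was 12.5 RPKM for the members, against 5.43 RPKM for these genes (18.2 RPKM and 8.14 RPKM per transcript length). The lowest was Dctd, a deoxycytidylate deaminase, at 0.0911 RPKM. The highest on the deposited scale was Samhd1, which breaks down deoxynucleotides and is also expressed in myeloid cells that do not divide, at 60.0 RPKM. In S phase functions, the median was 2.79 RPKM for origin recognition and firing (17 genes, Orc1 at 0.632 RPKM to Gins4 at 9.21 RPKM). It was 3.24 RPKM for replicative polymerases and primase (12 genes, Pole2 at 1.81 RPKM to Pold4 at 13.8 RPKM), 6.64 RPKM for the clamp loader, RPA and lagging strand proteins (13 genes, Rfc3 at 1.70 RPKM to Lig1 at 14.2 RPKM), and 2.43 RPKM for other nucleotide synthesis genes (9 genes). Gins4, a further subunit of the GINS complex, was thus at a higher level than the members Gins1 and Gins2, and Gins3 had 2.70 RPKM.

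Upstream regulators held a few genes at high levels. Among D cyclins, their kinases and pocket proteins (8 genes, median 6.97 RPKM), Ccnd3 stood at 45.0 RPKM and Ccnd1 at 0.849 RPKM. Among other E2F family and DREAM genes (13 genes, median 3.00 RPKM), the E2F dimer partner Tfdp1 stood at 53.2 RPKM and E2f5 at 0.204 RPKM. Per transcript length, Ccnd3 stood at 187 RPKM, above Samhd1 (140 RPKM) and every member, and Tfdp1 at 77.7 RPKM.

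In mitotic functions, other G2/M regulators had a median of 6.74 RPKM (14 genes, Bora at 2.84 RPKM to the CDK-binding Cks2 at 44.4 RPKM). Kinetochore and centromere genes had a median of 4.10 RPKM (26 genes, Cenpw at 0.430 RPKM to Ndc80 at 12.0 RPKM). Other spindle, kinesin and cytokinesis genes had a median of 8.23 RPKM (22 genes, Kif18a at 1.41 RPKM to Incenp at 30.7 RPKM). Condensin and cohesin genes came closest to the members with a median of 12.5 RPKM (13 genes, Ncapg at 4.37 RPKM to Rad21 at 50.8 RPKM), and cohesin also acts outside mitosis. Of the 10 lists, 9 had a median below the 12.5 RPKM of the members. The 147 genes were listed for their roles and the members for the same reason, so the difference is given as a description only.

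**Figure D3:**
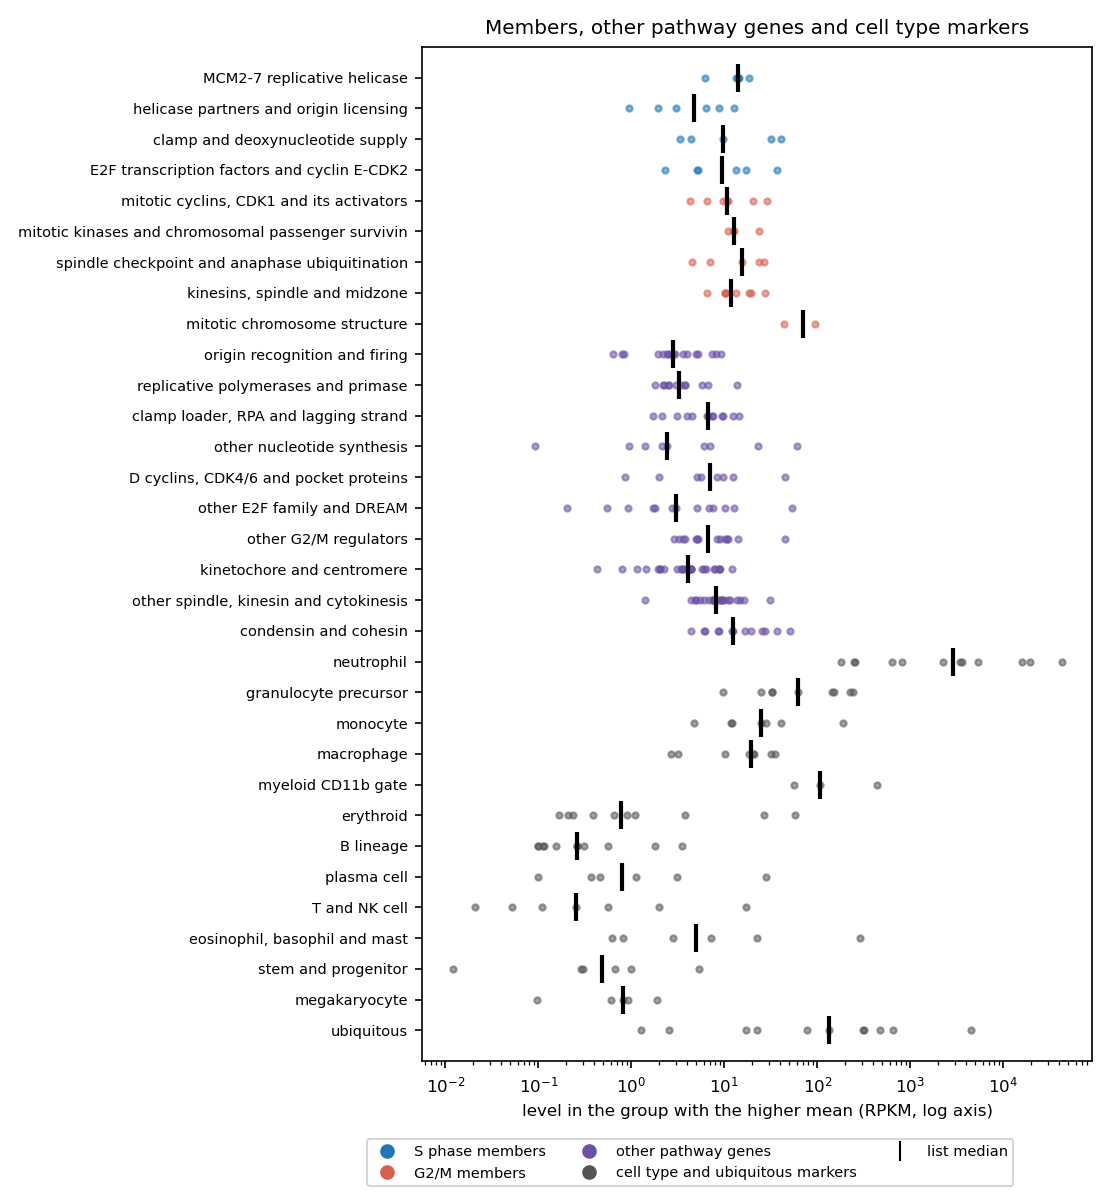
Level of each gene (points, RPKM in the group with the higher mean, log axis) in the 9 role groups of the members, the 10 lists of other pathway genes and the marker lists; black ticks are list medians. The members lie between 0.950 and 95.1 RPKM, below all 12 neutrophil genes (median 2844 RPKM); the B lineage list has a median of 0.258 RPKM and overlaps the lowest members, with Cd79b at 3.54 RPKM.

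Promoters were examined for the elements through which the 2 phases are classically controlled. RefSeq windows (GRCm38.p6) from 250 bases before to 50 bases after the transcription start were matched by symbol for 38 of 49 members, 18 of S phase and 20 of G2/M. Ccna2, Gins1, Aurkb, Mcm4, Foxm1, Kif20a, Ccne2, Tpx2, Gins2, Gmnn and Cdc25c were not matched. Both strands were searched for the E2F forms TTTCCCGC, TTTCGCGC, TTTGCCGC and TTTGGCGC, for the CHR form TTTGAA and for CCAAT. E2F forms can overlap each other, and the motifs can overlap, as an E2F form and a CCAAT box do by 1 base in Mcm7. The promoters below are shown because they hold the forms and spacings described after them, the S phase genes Mcm5, Mcm6, Mcm7 and Cdc6 with E2F forms and the G2/M genes Cdk1, Cdc20, Top2a and Mki67 with CHRs. Each run is the 170 bases that end at the base before the start, 5′ to 3′ on the strand of the gene, with E2F forms and CHRs in capitals on whichever strand they match.
Mcm5 (chr8:75109339-75109508, + strand): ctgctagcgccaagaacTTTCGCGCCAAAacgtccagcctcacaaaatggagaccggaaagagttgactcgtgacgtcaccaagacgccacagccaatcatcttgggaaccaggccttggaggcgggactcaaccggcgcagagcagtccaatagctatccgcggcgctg
Mcm6 (chr1:128359706-128359875, - strand): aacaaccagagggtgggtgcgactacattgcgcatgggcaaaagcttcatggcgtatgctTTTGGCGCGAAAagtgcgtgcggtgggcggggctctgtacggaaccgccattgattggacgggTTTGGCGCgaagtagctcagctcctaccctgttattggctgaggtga
Mcm7 (chr5:138171884-138172053, - strand): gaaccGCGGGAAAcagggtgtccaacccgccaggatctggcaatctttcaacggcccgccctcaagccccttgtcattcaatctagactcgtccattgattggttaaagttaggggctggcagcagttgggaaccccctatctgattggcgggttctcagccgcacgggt
Cdc6 (chr11:98907981-98908150, + strand): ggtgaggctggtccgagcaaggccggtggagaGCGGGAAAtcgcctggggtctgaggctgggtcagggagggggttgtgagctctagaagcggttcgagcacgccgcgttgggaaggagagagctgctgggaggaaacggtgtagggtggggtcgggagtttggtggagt
Cdk1 (chr10:69352913-69353082, - strand): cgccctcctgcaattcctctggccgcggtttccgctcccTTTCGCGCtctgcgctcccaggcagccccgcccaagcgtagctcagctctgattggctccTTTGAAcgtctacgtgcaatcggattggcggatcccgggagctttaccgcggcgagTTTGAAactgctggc
Cdc20 (chr4:118437344-118437513, - strand): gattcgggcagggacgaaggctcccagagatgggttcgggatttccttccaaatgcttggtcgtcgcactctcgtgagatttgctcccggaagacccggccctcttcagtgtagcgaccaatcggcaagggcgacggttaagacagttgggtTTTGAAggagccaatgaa
Top2a (chr11:99024190-99024359, - strand): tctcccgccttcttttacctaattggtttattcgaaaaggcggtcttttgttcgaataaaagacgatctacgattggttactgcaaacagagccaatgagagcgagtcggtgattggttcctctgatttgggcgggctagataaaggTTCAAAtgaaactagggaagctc
Mki67 (chr7:135716380-135716549, - strand): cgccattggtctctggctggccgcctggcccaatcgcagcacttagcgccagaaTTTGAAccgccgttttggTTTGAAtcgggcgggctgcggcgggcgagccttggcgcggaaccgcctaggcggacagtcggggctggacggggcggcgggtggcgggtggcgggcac

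Mcm5 and Mcm6 each hold a run in which an E2F form on one strand overlaps an E2F form on the other. The run is TTTCGCGCCAAA at position -153 in Mcm5 and TTTGGCGCGAAA at position -110 in Mcm6, counted from the start. Mcm6 has a further form at position -47. Mcm7 and Cdc6 carry the same form, printed as GCGGGAAA because it reads TTTCCCGC on the opposite strand. Matches outside the printed runs were at position 17 in Mcm7 (an E2F form) and at position -179 in Top2a (a CHR).

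In the G2/M promoters shown, the CHR stands downstream of a CCAAT box, printed as ccaat or, where it matches the opposite strand, as attgg. In Cdk1 a CHR at position -15 follows a CCAAT box 33 bases upstream, counted from motif start to motif start, and a second CHR lies at position -71. The same distance is 35 bases in Cdc20 and in Top2a. In Mki67 it is 25 bases, with a second CHR at position -98.

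Across the members, E2F forms were found in 8 of 18 S phase promoters and in 1 of 20 G2/M promoters, against 2.61% of all 27025 genes with a promoter in the table. The S phase genes were Mcm3, Mcm5, Mcm6, Mcm7, Cdt1, Cdc6, Cdk2 and E2f2, and the G2/M gene was Cdk1. The share in S phase genes was 44.4%. Of the 5 MCM genes with a window, Mcm2 was the only one without an E2F form in this window. It was also the lowest of the 6 subunits by level, though near Mcm4 per transcript length (12.6 RPKM and 13.9 RPKM). Mcm4 had no window, and a link between form and level was not tested.

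The CHR form was found in 13 of 20 G2/M promoters (65.0%) and in 4 of 18 S phase promoters (22.2%), against 20.2% of all genes. In the shorter window from 100 bases before the start, the same 65.0% of G2/M and 22.2% of S phase promoters held it, against 9.23% of all genes. The 4 S phase genes were Mcm2, E2f2, E2f8 and Cdc45. CCAAT boxes were common everywhere, in 12 of 18 S phase promoters (66.7%), 17 of 20 G2/M promoters (85.0%) and 41.1% of all genes.

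The combination of a CHR with a CCAAT box 25 to 40 bases upstream was found in 0 of 18 S phase promoters and in 8 of 20 G2/M promoters, against 0.729% of all genes. The 8 genes were Ube2c, Cdc20, Prc1, Mki67, Ccnb2, Cdk1, Top2a and Kif11. The range of distances was chosen after the positions in these members had been seen, so that the share in G2/M genes is a description of them. In 5 of the 8, the distance was between 28 and 35 bases, and in Mki67, Ccnb2 and Kif11 it was 25 or 26 bases. None of the 3 motifs was found in the windows of Birc5, Ccne1, E2f1, Mad2l1, Nusap1, Tk1 and Tyms, which says only that these letters are not in these windows.

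**Figure D4:**
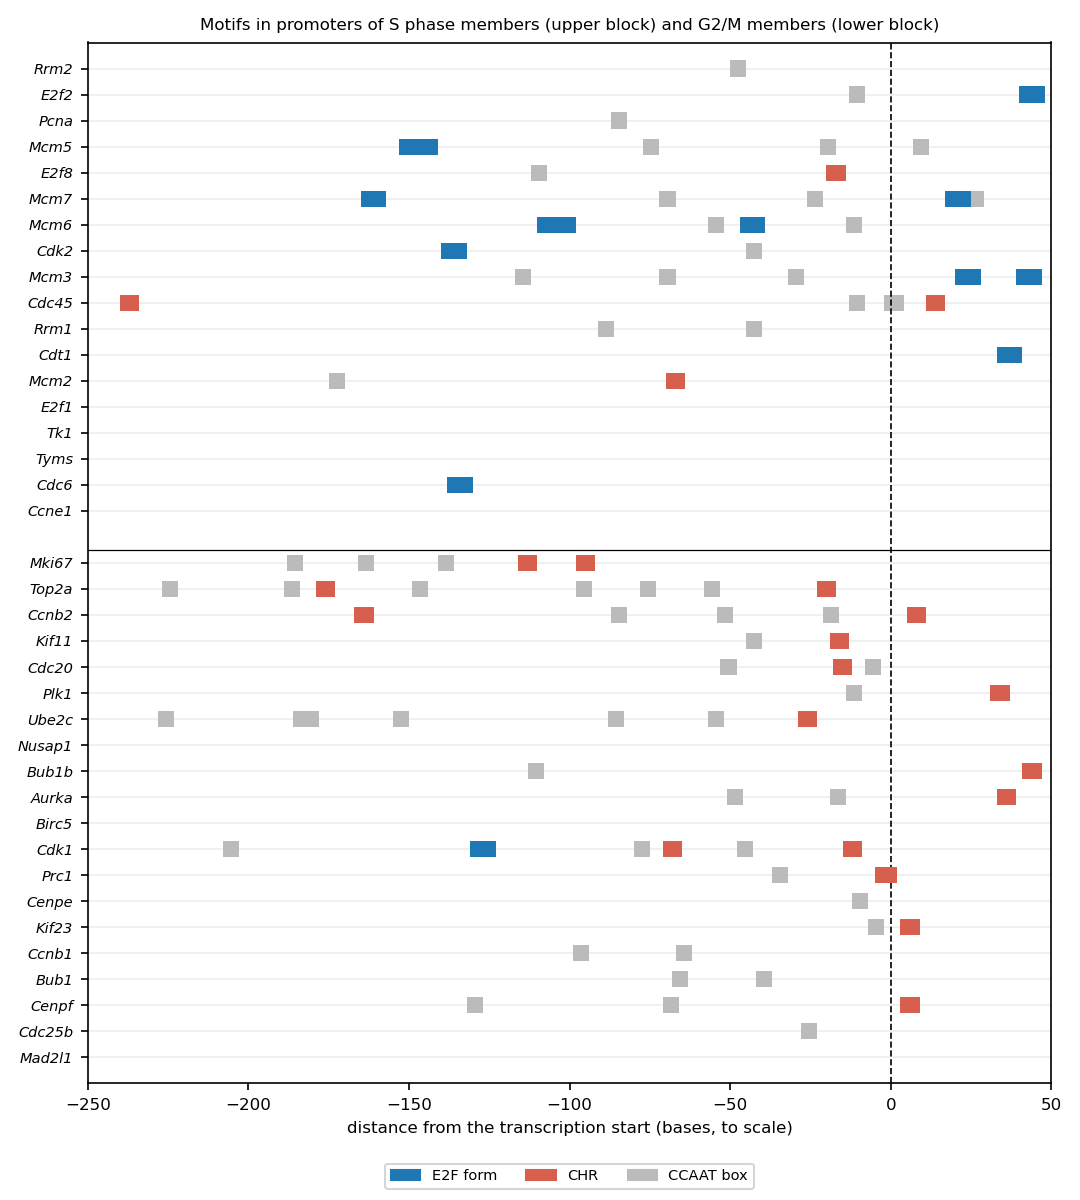
Positions of E2F forms (blue), CHRs (red) and CCAAT boxes (grey) along the promoter windows of 38 members, in bases from the transcription start (dashed line), S phase genes in the upper block and G2/M genes in the lower, each sorted by level. Blue marks occur in 8 rows of the upper block and in 1 of the lower, and red marks in 13 rows of the lower block; 1 window is drawn for each gene, so that the CHR of E2f2, which lies in its second window, is not shown.

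**Figure D5:**
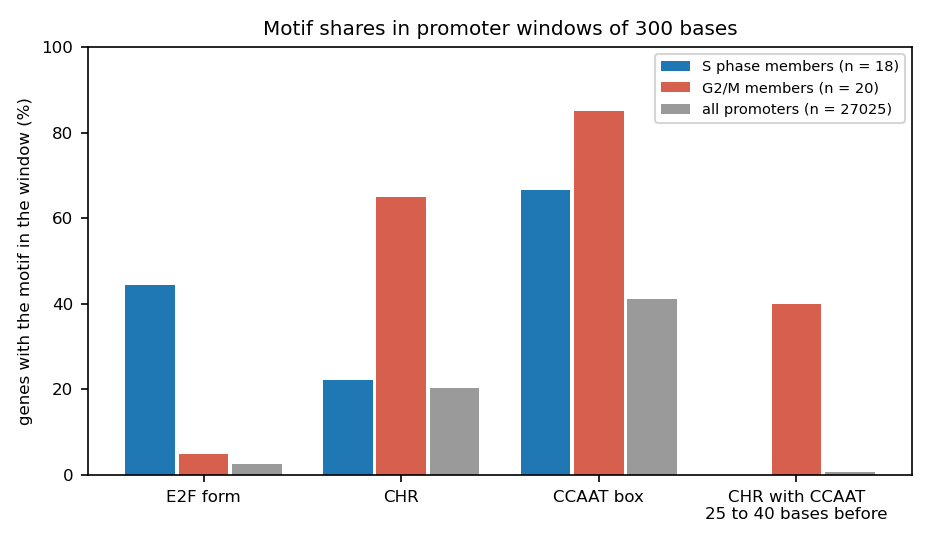
Share of genes (%, from 0) with each motif in the window, for S phase members (n = 18), G2/M members (n = 20) and all genes of the promoter table (n = 27025). E2F forms reach 44.4% in S phase members and the CHR 65.0% in G2/M members, against 2.61% and 20.2% of all genes.

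Levels were also set beside the motifs. The 13 G2/M genes with a CHR had a median of 23.7 RPKM and the 7 without one a median of 9.68 RPKM (28.0 RPKM and 11.2 RPKM per transcript length). The 8 S phase genes with an E2F form had a median of 13.8 RPKM and the 10 without one a median of 7.91 RPKM (21.6 RPKM and 18.1 RPKM per transcript length). The groups overlapped in level in both phases, with Cenpf at 6.55 RPKM having a CHR and Nusap1 at 18.3 RPKM having none. Rrm2 and Pcna, which with E2f2 were the 3 highest S phase genes, had CCAAT boxes and no E2F form in their windows. These medians are descriptions over genes that share libraries, and no test was made.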

How the data were processed

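The authors sequenced 4 PC-EV and 4 PBS samples of CD11b+ BM cell RNA as stranded, ribosomal RNA-depleted, paired-end libraries, mapped them to GRCm38 and compared them with a negative binomial model influenced by edgeR, which the submitters' processing notes also name. For the aligner, the annotation release and counting by strand, no source used here gives an answer. The deposited value used, Max group mean, is the authors' larger of the 2 group means. Its unit is not named. It was taken as RPKM, because multiplied by GENCODE vM21 merged exon length it takes 8 smallest steps, 1 for each library, matching 4282 of 4371 genes (98.0%) within 0.002 of a step, and the deposited RPKM values sum to 404642 and not to the fixed total that TPM would give. The steps assume a mean over 4 samples and give the depths, without telling reads from read pairs. On a simulated table of 40934 genes, the search for steps gave back all 8 simulated library sizes within 0.002 of each size, which tests the search and not the unit.

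The other 5 value columns hold the authors' own comparison (log2 fold change, fold change, p-value, false discovery rate and Bonferroni value) and were not used, nor was the file of genes selected by it. The test between groups set out in the design needed values of single samples and was not made. Levels are descriptions, with no replicate error. The members and all lists were chosen with earlier results of these data known. All 49 members were named, and of each other list the highest and lowest genes or, for markers, up to 3 of the highest. Levels per transcript length used the longest principal transcript of GENCODE vM21, and promoters came from RefSeq (GRCm38.p6). In 34 of 41 member windows, bases after the start were found in GENCODE transcripts of the same gene, on its strand. The other windows were not matched, and the search of the opposite strand could not have detected a reversed window. Background shares count a gene once if any of its windows holds the motif. Python 3.11.15, pandas 2.3.3, numpy 2.4.6, scipy 1.17.1 and matplotlib 3.10.9 were used.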

Additional observations from a re-analysis of the deposited data

How the results depend on the processing

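The median member stood at percentile 91.3 among genes with a level above 0, at 82.6 among genes with at least 0.1 RPKM, at 94.0 among every gene of the table and at 87.4 among protein-coding genes. The count of members at 1 RPKM or more was 48, and 49 at 0.5 RPKM and 47 at 2 RPKM. The ratio of the S phase to the G2/M median stayed below 1 under each alternative tried: it was 0.769, and 0.586 with geometric means, 0.728 without Cdk2, Ccna2 and Cdc25b, 0.786 with a pseudocount of 1 RPKM, 0.798 per transcript length and 0.782 without members that share over 5% of their exon length. The last 2 alternatives, and levels per transcript length, at which the member median was 18.2 RPKM and not 12.5 RPKM, were chosen after seeing the data. In a window from 100 bases before the start, E2F forms were found in 5 S phase and 0 G2/M promoters, against 1.45% of all genes. With the first letter of the form left out they were found in 11 S phase and 3 of 20 G2/M promoters (15.0%), against 10.9% of all genes, so that the G2/M share was near the background. CHR and CCAAT counts of members moved by less than 1.5 times in the shorter window, where the CHR was in 9.23% and CCAAT in 26.3% of all genes. Against promoters of protein-coding genes, chosen as a background after seeing the data, the shares were 3.29% for E2F forms, 18.5% for the CHR and 42.3% for CCAAT.

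No paired analysis was possible because the value used for each gene is a group mean. For the same reason the other count tools, the filter on low counts and leaving out each replicate were not run. Sequencing depth limits the levels little, with a counting error of at most 4.50%. The spread between samples is unknown, as is the group behind each level, so small differences between genes cannot be read as differences.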
